A study of Mus musculus with 30 samples.

Results

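The genes described here make, clear and sense adenosine, the nucleoside whose build-up outside brain cells during waking is a classic candidate for the signal of sleep need. They were the 7 genes Adora1, Adora2a, Adora2b, Ada, Adk, Nt5e and Slc29a1, chosen by name, and 11 probes of the array carried one of those names, out of 41174 probes with a target. Levels came from hypothalamic blocks of 30 mice, 1 array a mouse, collected in the light phase of the 17th cycle of an ultradian schedule of 3.5 h light and 3.5 h dark, in which light suppresses activity. Boxhill mice (Per3 5/5) and Coach mice (Per3 4/4) were homozygous for a knock-in (KI) in which an exon of mouse Per3 was replaced by its human counterpart with 5 or 4 copies of a tandem repeat. Per the study's methods all animals were adult C57BL/6 males without Cre, bred out of crosses of conditionally targeted mice to a line with ubiquitous Cre, and the wild-type (WT) mice, labelled Wildtype, kept the mouse Per3 gene. The arrays fell into 2 runs. Run 1 held 7 Per3 5/5 and 7 WT arrays and run 2 held 8 Per3 4/4 and 8 WT arrays, so each KI genotype was compared with the WT arrays of its own run.

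Adenosine reaches the space around cells in part from released ATP, which is cut down to AMP and then to adenosine by the membrane enzyme CD73, encoded by Nt5e. The transporter ENT1, encoded by Slc29a1, carries it across the membrane, and inside the cell adenosine kinase (Adk) turns it back to AMP while adenosine deaminase (Ada) turns it to inosine. The A1 receptor (Adora1) couples to inhibitory G proteins and damps neuronal firing, whereas the receptors encoded by Adora2a, densest in the striatum, and by Adora2b couple to stimulatory G proteins.

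The receptor genes are read by probes at different places, and the targets of 4 of the 6 receptor probes are shown because those probes behave differently from one another below. Each sequence runs 5′ to 3′ as the array files give it, with positions in build mm9 as the files of run 1 give them (the headers of run 2 name mm8). The Adora1 probe A_51_P188845 lies at chr1:136099564-136099623 on the minus strand, the Adora2a probe A_52_P240878 at chr10:74795972-74796031 on the plus strand and the Adora2b probe A_52_P419455 at chr11:62079096-62079155 on the plus strand. All 3 are 60 bases long. The other Adora2a probe, A_51_P387348, lies downstream of it at chr10:74797351-74797411, and its first 30 bases are given.
Adora1 A_51_P188845: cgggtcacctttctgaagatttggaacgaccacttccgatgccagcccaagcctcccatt
Adora2a A_52_P240878: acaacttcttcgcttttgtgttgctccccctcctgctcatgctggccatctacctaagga
Adora2b A_52_P419455: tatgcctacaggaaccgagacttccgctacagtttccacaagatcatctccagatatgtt
Adora2a A_51_P387348, first 30 bases: tgagtttagagacatcaagtcatggacccg

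Some arrays stood apart before any comparison was made. In 2 Per3 4/4 arrays, replicates 6 and 7, the Y-linked Ddx3y, Eif2s3y, Kdm5d and Uty were not well above background and Xist was at 1.78 and 1.52 (probe A_51_P145453), against at most -4.47 on the other 28 arrays, which goes against male animals. WT replicate 10 of run 2 had a summed striatum marker level of 148 (linear levels, in units of the array's 75th percentile), against 24.6 to 57.7 on the other WT arrays of the run, and a summed hypothalamic neuron marker level of 23.9, against 147 to 665. WT replicate 14 had a summed pituitary marker level of 982. The hypothalamic neuron markers that had a probe were well above background on all 30 arrays in 11 of 12 cases, the exception being Sim1. The 75th percentile of intensity ranged from 347 to 1546 over the arrays. In run 1 the replicate numbers of the scanner files and of the authors' table disagreed: 13 of 14 table columns matched the file of another number, in all 14 cases one of the same genotype, so genotype comparisons hold for either numbering. Replicate numbers below are those of the scanner files. Per3 itself differed by -0.23 ± 0.20 (SE) in log2 between Per3 5/5 and WT and by 0.23 ± 0.19 between Per3 4/4 and WT. Its probe passed the background test on all 30 arrays and reads RNA that KI mice also make, so it does not check the labels.

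No adenosine gene passed the test of a difference between KI and WT mice in either run. Of the 11 probes, 10 were well above background on all 30 arrays and were tested, and the other Nt5e probe, A_51_P156740, was well above background on 2 arrays and was not. For Per3 5/5 mice 0 of 10 probes passed an adjusted p of 0.05 (limma, Benjamini-Hochberg over 29947 probes), where 0% of all probes did, and 0 passed an unadjusted p of 0.05, where 6.17% of all probes did. For Per3 4/4 mice 0 of 10 passed the adjusted limit, against 0.0134% of all probes, and 0 the unadjusted one, against 1.73%. The KI and WT levels overlapped at all 10 probes in both runs, where 0.174% of all probes did not overlap in run 1 and 0.0134% in run 2. The methods' rank product, at a false prediction limit of 0.015, also called 0 of 10 in each run, against 1.12% and 0.117% of all probes. The differences ran from -0.56 to 0.12 in log2 in Per3 5/5 mice, with 7 below 0 and 3 above, and from -0.59 to 0.22 in Per3 4/4 mice, with 6 below 0 and 4 above. Their median was -0.08 and -0.05, beside a median of -0.02 and 0.01 over all probes tested. Without Per3 4/4 replicates 6 and 7, again 0 of 10 passed, and the Per3 4/4 differences were -0.11, -0.03 and -0.05 for Adora1 (A_51_P188845, A_52_P172272 and A_52_P661412), -0.44 and -0.15 for Adora2a (A_51_P387348 and A_52_P240878), -0.09 for Adora2b, 0.28 for Ada, 0.19 for Adk, -0.08 for Nt5e and -0.04 for Slc29a1.

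**Figure D1:**
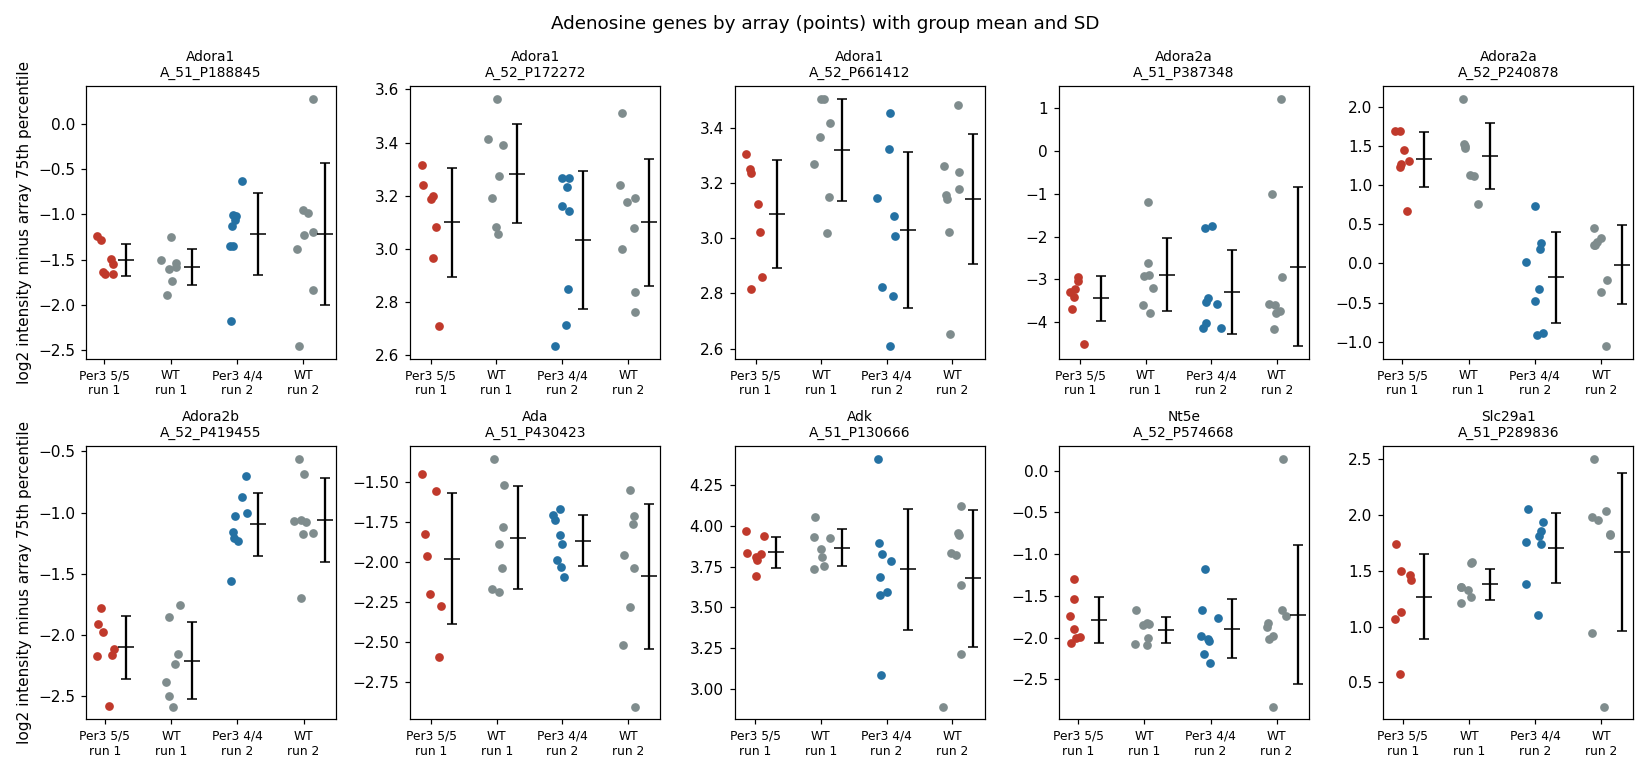
Level of each tested adenosine probe (y axis, log2 intensity minus the array's 75th percentile; scales differ between panels) on each array (points), by genotype and run, with the group mean and SD (black). KI and WT points overlap in every panel. The highest WT array of run 2 is at 1.22 at Adora2a A_51_P387348, with the next at -0.995, and at 0.14 at Nt5e, with the next at -1.67.

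The A1 receptor gave the smallest p of the set. At Adora1 probe A_52_P661412 the 7 Per3 5/5 arrays ran from 2.82 to 3.31 with a median of 3.12, and the 7 WT arrays from 3.02 to 3.51 with a median of 3.37, on the log2 scale relative to the array's 75th percentile. All 7 Per3 5/5 arrays were below the WT mean, but 5 of them lay inside the WT range. The difference was -0.23 ± 0.13 (SE; 95% interval -0.49 to 0.03; adjusted p = 0.801, limma), and -0.13 with array weights. An exact two-sided permutation test over the 14 arrays gave p = 0.0437, the smallest of the 20 such tests made, 1 for each probe and run; limma's unadjusted p was 0.082, and the share of all probes that pass the exact test was not computed. The difference was below 0 on each of the 4 slides, from -0.40 to -0.10. In Per3 4/4 mice the same probe ran from 2.61 to 3.45 around a median of 3.05 and in their WT mice from 2.65 to 3.48 around a median of 3.17. The groups covered nearly the same range, and the difference was -0.11 ± 0.12 (SE; 95% interval -0.36 to 0.13), or -0.05 without Per3 4/4 replicates 6 and 7.

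The neighbouring Adora1 probe A_52_P172272 followed it over the arrays (r = 0.86 over 30 arrays after removal of the group means, a description of 2 probes of 1 gene). It lies at chr1:136098259-136098318 and A_52_P661412 at chr1:136095981-136096040. In run 1 it ran from 2.71 to 3.31 around a median of 3.19 in Per3 5/5 and from 3.06 to 3.57 around a median of 3.28 in WT mice, a difference of -0.18 ± 0.13 (95% interval -0.44 to 0.07; adjusted p = 0.838, limma). In run 2 it ran from 2.63 to 3.27 around a median of 3.15 in Per3 4/4 and from 2.76 to 3.51 around a median of 3.13 in WT mice, a difference of -0.07 ± 0.12 (95% interval -0.31 to 0.17). The run 1 groups shared the stretch from 3.06 to 3.31. With array weights the run 1 difference was -0.06, and without Per3 5/5 replicate 6 it was -0.12. The Adora1 probe A_51_P188845, whose sequence is shown above, ran from -1.66 to -1.24 around a median of -1.55 in Per3 5/5 and from -1.89 to -1.25 around a median of -1.58 in WT mice, a difference of 0.08 ± 0.25 (95% interval -0.43 to 0.60). The range in run 2 was from -2.18 to -0.62 around a median of -1.10 in Per3 4/4 and from -2.46 to 0.28 around a median of -1.21 in WT mice, a difference of 0.00 ± 0.24 (95% interval -0.48 to 0.49). The WT arrays of run 2 were the most spread of these groups, with replicate 13 lowest and replicate 15 highest. This probe followed A_52_P172272 less closely (r = 0.41) and A_52_P661412 hardly at all (r = 0.05), and none of the 3 probes passed the test. At A_52_P661412 the effect in Per3 5/5 mice minus that in Per3 4/4 mice was -0.12 (95% interval -0.48 to 0.24).

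The widest spread was at 1 of the 2 probes of Adora2a, the receptor gene of the striatum. At Adora2a probe A_51_P387348 the Per3 5/5 arrays ran from -4.51 to -2.95 around a median of -3.28 and their WT arrays from -3.79 to -1.20 around a median of -2.91. The Per3 4/4 arrays ran from -4.13 to -1.74 around a median of -3.54 and their WT arrays from -4.15 to 1.22 around a median of -3.59. The highest WT array was replicate 1 in run 1 and replicate 10 in run 2. In run 2, WT replicate 8 came next at -0.995, with the one below it at -2.95. The within-group SD of this probe was 1.19, higher than that of 99.5% of all probes tested, and that of the other Adora2a probe was 0.48. The differences were -0.56 ± 0.60 (SE; 95% interval -1.79 to 0.68) in Per3 5/5 and -0.59 ± 0.56 (95% interval -1.75 to 0.56) in Per3 4/4 mice. The first was -0.28 without WT replicate 1 and -0.36 with normexp. The second was -0.03 without WT replicate 10, -0.35 without WT replicate 8 and -0.21 with array weights.

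The level of that probe followed the striatum markers, closely in run 2 and weakly in run 1. Over the 30 arrays, after removal of the 4 genotype-by-run means, it correlated with the mean log2 level of 8 striatum markers at r = 0.87 (rho = 0.82; permutation adjusted p = 0.00108 over 36 relations). Without the 2 arrays farthest from the median r was 0.76, and without WT replicate 10 it was 0.75. Within run 1 r was 0.39 (permutation adjusted p = 0.431) and within run 2 it was 0.94 (permutation adjusted p = 0.00126). The probe was low where hypothalamic neuron markers were high (r = -0.82; permutation adjusted p = 0.0121), with r = 0.04 in run 1 and r = -0.95 in run 2. That r was -0.59 without the 2 farthest arrays (permutation adjusted p = 0.121), so it no longer passed. It was -0.65 without WT replicate 10 (permutation adjusted p = 0.023). No marker list contained an adenosine gene. These relations were computed after the values were seen. In whole blocks of tissue, fewer cells of a type and less RNA per cell cannot be told apart.

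**Figure D2:**
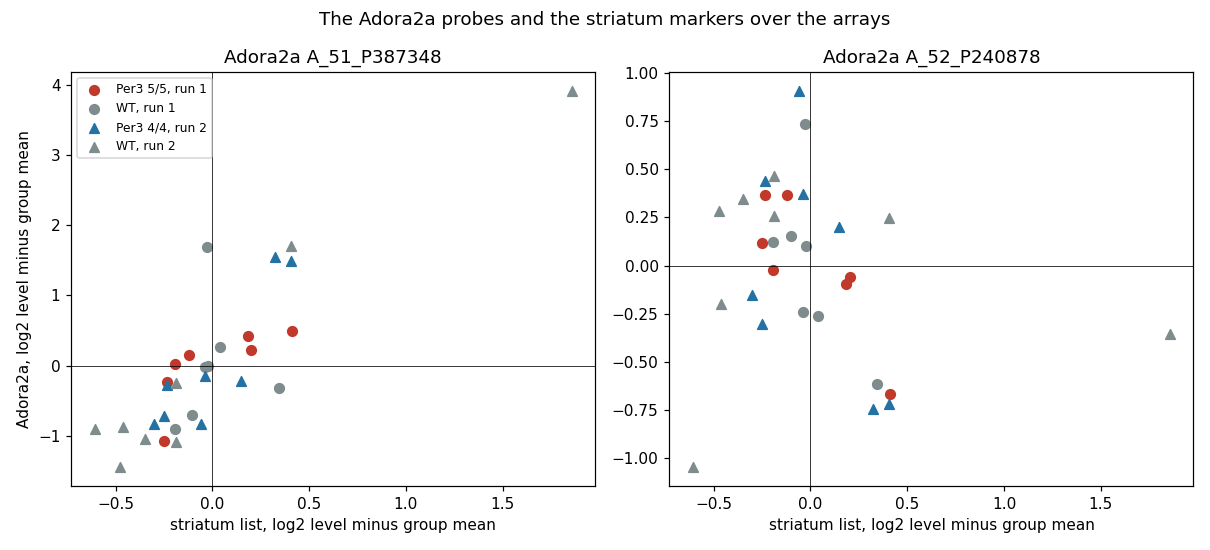
Level of the 2 Adora2a probes (y axis) against the mean level of the striatum markers (x axis), both in log2 after subtraction of the group mean, 1 point an array, circles for run 1 and triangles for run 2. At A_51_P387348 (left, r = 0.87) the levels rise together, with WT replicate 10 at the upper right; at A_52_P240878 (right) r is -0.26.

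The other Adora2a probe, A_52_P240878, did not follow A_51_P387348 over the arrays (r = -0.22, with 0.18 in run 1 and -0.34 in run 2). It gave r = -0.26 with the striatum markers over the 30 arrays (permutation adjusted p = 0.405 over 84 relations), with r = -0.71 in run 1 (adjusted p = 0.0476) and r = -0.17 in run 2. In run 1 it also rose with astrocyte markers (r = 0.78, adjusted p = 0.0307) and with cortex and hippocampus markers (r = 0.73, adjusted p = 0.0476). In run 2 these were r = 0.07 and r = 0.22. It ran from 0.67 to 1.70 around a median of 1.31 in Per3 5/5 mice and from 0.76 to 2.11 around a median of 1.48 in their WT mice. In run 2 it ran from -0.92 to 0.73 around a median of -0.15 in Per3 4/4 and from -1.06 to 0.45 around a median of 0.24 in WT mice. The groups of a run overlapped, while the runs barely did. The WT mean was 1.39 lower in run 2 than in run 1, and run and the mice in it cannot be told apart. The differences from WT were -0.04 ± 0.25 (95% interval -0.55 to 0.46) and -0.16 ± 0.23 (95% interval -0.64 to 0.31). The named genes most like this probe over the arrays were the olfactory receptor gene Olfr414 (r = 0.95) and the homeobox gene Rhox4e (r = 0.95). For A_51_P387348 the nearest was Arpp21 (r = 0.92, or 0.86 without WT replicate 10). These likenesses are descriptions over 30 arrays, chosen as the highest of 19206 probes.

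Adora2b encodes the low-affinity adenosine receptor. It ran from -2.58 to -1.78 around a median of -2.11 in Per3 5/5 and from -2.58 to -1.76 around a median of -2.23 in WT mice of run 1. The range in run 2 was from -1.56 to -0.70 around a median of -1.09 in Per3 4/4 and from -1.70 to -0.56 around a median of -1.07 in WT mice. The WT mean was 1.15 higher in run 2 than in run 1, the opposite order to that of Adora2a A_52_P240878. The differences were 0.11 ± 0.16 (95% interval -0.21 to 0.43) and -0.03 ± 0.15 (95% interval -0.34 to 0.27). Its nearest probes over the arrays were those of Hepacam, a cell adhesion gene of glia (r = 0.80), and Fgfr3, a growth factor receptor gene (r = 0.79).

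The enzymes that make and clear adenosine gave no call either. Nt5e (A_52_P574668, chr9:88266616-88266675) ran from -2.06 to -1.30 around a median of -1.89 in Per3 5/5 and from -2.09 to -1.67 around a median of -1.85 in WT mice of run 1. It ran from -2.31 to -1.18 around a median of -2.0 in Per3 4/4 and from -2.83 to 0.14 around a median of -1.85 in WT mice of run 2, where the top value was WT replicate 10 and the next was -1.67. The difference was 0.12 ± 0.26 (95% interval -0.41 to 0.64) in Per3 5/5 mice. In Per3 4/4 mice it was -0.17 ± 0.24 (95% interval -0.66 to 0.32), which became 0.10 without WT replicate 10.

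Adk (A_51_P130666, chr14:22267635-22267694), the main route of adenosine clearance at rest, ran in run 1 from 3.69 to 3.97 around a median of 3.82 in Per3 5/5 and from 3.73 to 4.06 around a median of 3.86 in WT mice, with a difference of -0.03 ± 0.16 (95% interval -0.36 to 0.30). In run 2 it spread more widely, from 3.08 to 4.41 around a median of 3.74 in Per3 4/4 and from 2.89 to 4.12 around a median of 3.83 in WT mice, with a difference of 0.06 ± 0.15 (95% interval -0.25 to 0.36).

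Ada (A_51_P430423, chr2:163552581-163552640) ran from -2.60 to -1.45 around a median of -1.96 in Per3 5/5 and from -2.19 to -1.35 around a median of -1.89 in WT mice of run 1, a difference of -0.13 ± 0.19 (95% interval -0.51 to 0.25). In run 2 it ran from -2.10 to -1.67 around a median of -1.86 in Per3 4/4 and from -2.91 to -1.55 around a median of -2.0 in WT mice, and 7 of 8 Per3 4/4 arrays were above the WT mean. That difference, 0.22 ± 0.17 (95% interval -0.13 to 0.58), was 0.11 without WT replicate 10, 0.11 with normexp and 0.28 without Per3 4/4 replicates 6 and 7, and it turned to -0.05 with array weights. The 2 effects on Ada differed by -0.36 (95% interval -0.88 to 0.16; adjusted p = 1, limma), the largest such gap of the set. For the test of that gap, 0 of 10 probes passed the adjusted limit, against 0% of all probes, and 0 the unadjusted one, against 2.98%.

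The transporter gene Slc29a1 (A_51_P289836, chr17:45722368-45722427) ran from 0.57 to 1.74 around a median of 1.42 in Per3 5/5 and from 1.21 to 1.58 around a median of 1.35 in WT mice of run 1, so the KI arrays spread beyond the WT range on both sides. The difference was -0.11 ± 0.23 (95% interval -0.58 to 0.36). The range in run 2 was from 1.1 to 2.05 around a median of 1.79 in Per3 4/4 and from 0.28 to 2.50 around a median of 1.89 in WT mice, with WT replicate 10 lowest. The difference of 0.04 ± 0.22 (95% interval -0.41 to 0.48) became -0.16 without that array.

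Some members rose and fell together over the arrays, described here after removal of the group means and over 30 arrays that share runs and dissections. Nt5e was high where Slc29a1 was low (r = -0.76, or -0.56 without WT replicate 10). Adora1 A_51_P188845 followed Adora2b (r = 0.66, with 0.72 in run 1 and 0.74 in run 2). The same Adora1 probe was low where Adk was high in run 2 (r = -0.74) but not in run 1 (r = 0.13). The brighter Adora1 probes did not share this. With Adk, A_52_P661412 gave r = 0.64 in run 1 and 0.42 in run 2, and A_52_P172272 gave 0.63 and 0.07. The nearest named genes were Zyx (r = 0.87) and Cdk16 (r = 0.86) for Adora1 A_52_P661412, Tnfsf13b (r = 0.72) and Rpn2 (r = 0.70) for Ada, and Tmem49 (r = 0.95) and Dazap2 (r = 0.94) for Adk. For Nt5e they were Isoc1 (r = 0.93) and Lrba (r = 0.91), and for Slc29a1 Zfp423 (r = 0.86) and Zap70 (r = 0.86). Ada had the least close neighbours of the 7 genes.

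**Figure D3:**
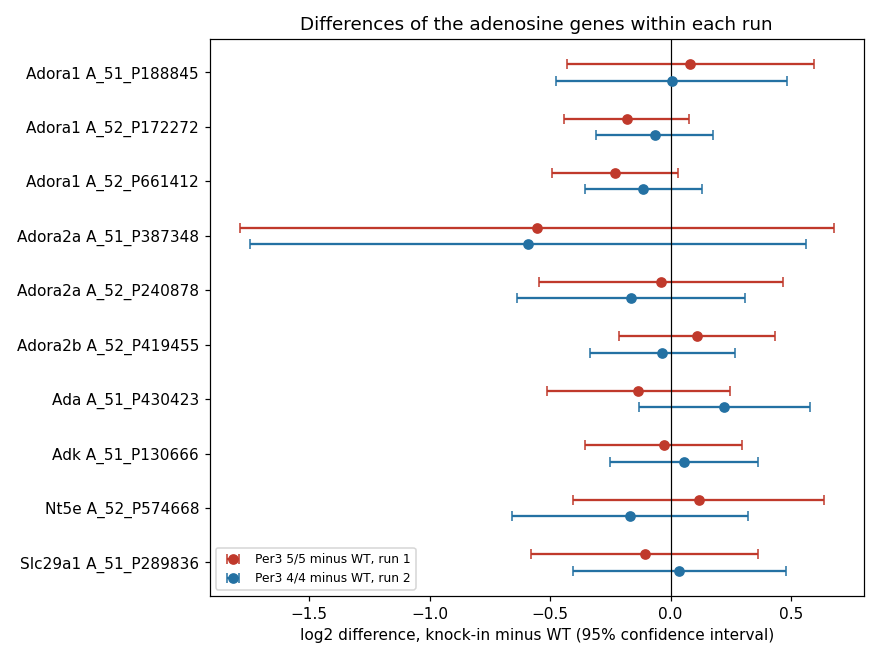
Difference between KI and WT (x axis, log2; points with 95% confidence intervals) for each tested adenosine probe, Per3 5/5 in run 1 (red) and Per3 4/4 in run 2 (blue). Every interval includes 0, and those of Adora2a A_51_P387348 are the widest (-1.79 to 0.68 and -1.75 to 0.56).

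For the brightest probe of each gene, 84 relations to 12 lists of cell type markers were computed in the same way. Of these, 1 passed a permutation adjusted p of 0.05, that of Adora1 (A_52_P661412) with the blood list (r = 0.68, rho = 0.69, adjusted p = 0.0227). It was 0.59 without the 2 arrays farthest from the median, 0.55 within run 1 (adjusted p = 0.197) and 0.74 within run 2 (adjusted p = 0.0701). The same Adora1 probe was low where hypothalamic neuron markers were high, at r = -0.52 over the 30 arrays (adjusted p = 0.0649; rho = -0.67, adjusted p = 0.00168), -0.84 in run 1 (adjusted p = 0.0227), -0.46 in run 2 (adjusted p = 0.315) and -0.75 without WT replicate 10 (adjusted p = 0.00084). With oligodendrocyte markers r was 0.57 (adjusted p = 0.0615; rho = 0.71, adjusted p = 0.00168), 0.80 in run 1 (adjusted p = 0.0307) and 0.51 in run 2 (adjusted p = 0.253). In run 1 the mean log2 level of the hypothalamic neuron markers was 2.45 ± 0.40 (SD) in Per3 5/5 and 2.10 ± 0.39 in WT mice, beside the Adora1 difference. That of the oligodendrocyte markers was 4.75 ± 0.23 and 4.88 ± 0.14. Of these markers 0 of 12 and 0 of 6 were called, where 0% of all probes were. The counts therefore do not tell whether the lists differed. Summed blood marker levels ran from 60.8 to 274 in Per3 5/5, 80.0 to 215 in WT of run 1, 72.0 to 327 in Per3 4/4 and 64.9 to 551 in WT of run 2. In either comparison 0 of 4 tested blood markers passed, where 0% of all probes did for Per3 5/5 and 0.0134% for Per3 4/4. Relations of the other Adora1 probes were among 36 computed after the values were seen. A_52_P172272 passed with the blood (r = 0.59), oligodendrocyte (r = 0.56), endothelium (r = 0.48) and meninges and perivascular (r = -0.56) lists. The permutation adjusted p was 0.0371 for endothelium and 0.0277 for the rest. A_51_P188845 passed with microglia (r = 0.40, permutation adjusted p = 0.03) and gave r = -0.03 with blood. Relations of other members, at their brightest probe, passed by rho but not by r. Nt5e rose with meninges and perivascular markers (r = 0.50, permutation adjusted p = 0.0615, and rho = 0.65, adjusted p = 0.00861). Its r was 0.77 in run 1 (adjusted p = 0.0464) and 0.47 in run 2 (adjusted p = 0.253). Adora2b rose with microglia markers (r = 0.52, adjusted p = 0.0615, and rho = 0.62, adjusted p = 0.00907). Its r was 0.45 in run 1 and 0.62 in run 2. The part of these cell types in the Adora1, Nt5e and Adora2b values was not tested.

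The rest of the pathway was described from 53 gene names, of which 47 had a probe and 45 were tested, with 89 probes. In each comparison 0 of 89 passed an adjusted p of 0.05 (limma), against 0% of all probes for Per3 5/5 and 0.0134% for Per3 4/4. An unadjusted p of 0.05 was passed by 2 of 89 (2.25%) in each, against 6.17% and 1.73% of all probes. Their median difference was 0.00 in Per3 5/5 and 0.03 in Per3 4/4 mice, with 45 probes above 0 in the former and 50 in the latter. By part, the 10 probes of the other purine receptors had a median of 0.02 and -0.05, and the 12 of ATP release and hydrolysis outside the cell -0.03 and 0.09. The 7 probes listed under AMP hydrolysis inside the cell, of the nucleotidase genes Nt5c, Nt5c2 and Nt5c3, had a median of 0.13 and 0.06. Nt5c1a, also listed there, had no probe, and how far these genes act on AMP was not tested. The 29 probes of AMP, inosine and homocysteine metabolism had a median of 0.13 and 0.05, the 5 of nucleoside transport -0.11 and 0.06, and the 26 of receptor coupling (G protein and adenylyl cyclase genes) -0.14 and -0.03. In Per3 5/5 mice the smallest unadjusted p belonged to Panx1, a channel gene that releases ATP, at probe A_52_P681332, with a difference of 1.00 ± 0.33 (adjusted p = 0.796, limma). It was above background on 3 of 7 Per3 5/5 arrays and 0 of 7 WT arrays, with measured means of -5.79 and -6.79. Since both groups hold values that are not above background, no fold is given. The rank product called it, the 1 such call among the 89 probes, where 1.12% of all probes were called. The brighter Panx1 probe, A_51_P135340, differed by 0.01 ± 0.17. Next came Adss (0.29 ± 0.14), of AMP synthesis, and Nt5c3 (0.26 ± 0.13), a nucleotidase.

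In Per3 4/4 mice the 3 genes with the smallest unadjusted p were Slc28a3, a concentrative nucleoside transporter (0.70 ± 0.30), Nt5c, a nucleotidase (0.21 ± 0.10), and Adora3, the A3 receptor (-0.49 ± 0.24), each with an adjusted p of 1 (limma). In Per3 4/4 mice the other Nt5c probe, A_52_P423849, differed by 0.11 ± 0.09 and the other tested Adora3 probe, A_51_P382789, by -0.18 ± 0.28. In Per3 5/5 mice the probes with the smallest p differed by -0.28 ± 0.32 (Slc28a3), -0.02 ± 0.10 (Nt5c) and 0.01 ± 0.26 (Adora3). No gap between the 2 effects passed the adjusted limit.

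**Figure D4:**
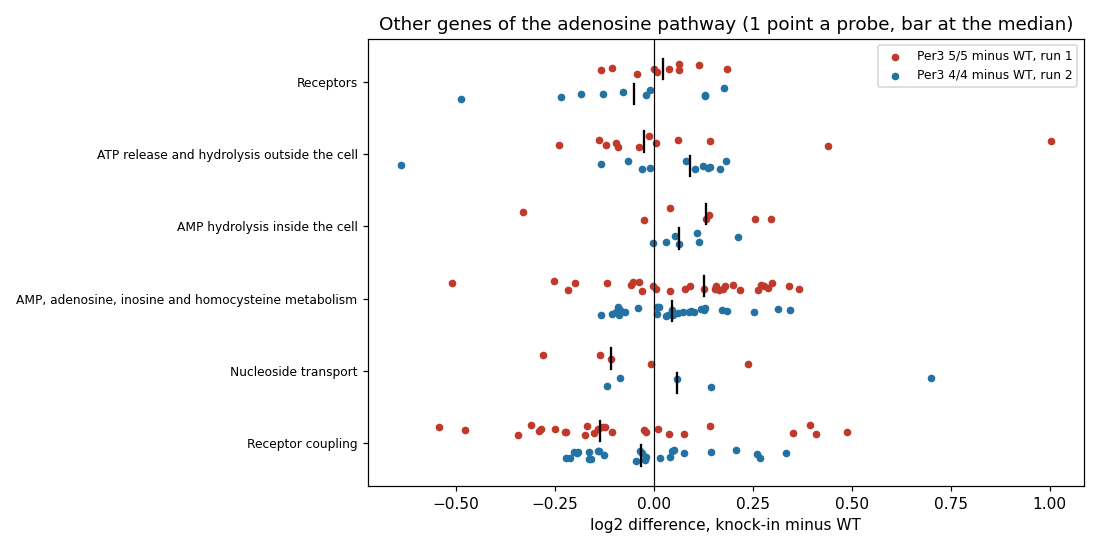
Difference between KI and WT (x axis, log2) of the 89 other probes of the adenosine pathway, by part of the pathway (rows), with Per3 5/5 in run 1 (red) and Per3 4/4 in run 2 (blue) and a bar at each median. The farthest point is Panx1 A_52_P681332 in Per3 5/5 mice at 1.00, a measured value with WT below background.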

How the data were processed

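RNA of 30 hypothalamic blocks was labelled with Cy3 and hybridised to 1-colour Agilent arrays. The authors deposited scanner intensity values per spot from Feature Extraction 10.7.1.1, per the file headers, background-subtracted and not normalized between arrays. They also deposited a log2 table, shifted to the 75th percentile and, as checked here, centred on each probe's median within a run; it served as an alternative. Here log2 intensity minus each array's 75th percentile was used, outlier spots were left out, spots of a probe were averaged, and 29947 probes that passed the background test on 50% or more of the arrays of any 1 genotype were tested with limma 3.58.1 (R 4.3.3), with run and genotype as terms and Benjamini-Hochberg adjustment. The number of arrays limits the precision. Error values are SE unless SD is named. Groups came from the labels. Named genes were all probes of the 7 genes, the 3 pathway genes with the smallest p in each comparison, any past an adjusted p of 0.05, and the 2 genes most like each member. For the second Adora2a probe, 1 of these is not reported here. The second Adora2a probe's likenesses were added after its values were seen. Correlations used 100000 permutations within groups. The rank product, written for this work with 100 permutations, and limma were tested on simulated data. Genes and lists were chosen with earlier results of these data known. Alternatives are given in the closing section.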

Additional observations from a re-analysis of the deposited data

Results flagged for a closer look

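Among 40 sets of values (10 probes in 4 groups), 2 held an array whose gap to its nearest neighbour was large for the group's whole range, where about 1 in 20 groups is picked out by chance. At Adora1 A_51_P188845, Per3 4/4 replicate 5 was lowest of 8 arrays at -2.18, with the next at -1.35. At Nt5e A_52_P574668, WT replicate 10 of run 2 was highest of 8 at 0.14, with the next at -1.67. WT replicate 10 is also the array with the highest striatum and lowest hypothalamic neuron marker sums; the part of that in its Nt5e level was not tested.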

How the results depend on the processing

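No adenosine probe was called in either comparison, or for the gap between them, under any of the alternatives or with any 1 array left out, so those counts stayed at 0. On the pathway list the rank product called 1 of 89 probes in Per3 5/5 mice, against 1.12% of all probes, and no other alternative called any. Counts over all probes moved more. For Per3 5/5 they were 0, but 16 with array weights and 335 by the rank product, and 0 to 3 with 1 array left out. For Per3 4/4 they were 4, but 9 with array weights, 7 with normexp, 7 with probes well above background on every array, 0 with the arrays of the run alone, 7 with outlier spots kept, 9 with slide as a random block, 0 by the methods' t-test, 8 with variance trend and robust moderation, 7 without Per3 4/4 arrays 6 and 7, 35 by the rank product, and 2 to 8 with 1 array left out. The rank product assumes 1 spread for every probe. The count of marker list relations was 1, but 5 by Spearman's rho, 6 without the 2 arrays farthest from the median, 7 in run 1, 0 in run 2, 4 without WT replicate 10 and 7 of 36 for the probes that are not the brightest of their gene; the last 2 were chosen after seeing the data. The cause of these moves was not tested.

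Signs of single probes, none of them called, turned in some settings, from reported values between -0.17 (Nt5e, Per3 4/4) and 0.22 (Ada, Per3 4/4). With array weights Adora2a A_52_P240878 (Per3 5/5) was 0.22, Ada (Per3 4/4) -0.048, Adk 0.044 (Per3 5/5) and -0.031 (Per3 4/4), and Slc29a1 0.090 (Per3 5/5) and -0.046 (Per3 4/4). With normexp Adora1 A_51_P188845 (Per3 4/4) was -0.015 and Adk (Per3 5/5) 0.013, and with quantile normalization that Adora1 probe was -0.021. Without Per3 4/4 arrays 6 and 7 it was -0.11, and Slc29a1 (Per3 4/4) was -0.039. With 1 array left out, Adora1 A_51_P188845 (Per3 4/4) ran from -0.17 to 0.22, Adora2a A_52_P240878 (Per3 5/5) from -0.14 to 0.080, Adora2b (Per3 4/4) from -0.13 to 0.037, Adk from -0.051 to 0.0024 (Per3 5/5) and from -0.057 to 0.15 (Per3 4/4), Nt5e (Per3 4/4) from -0.33 to 0.10, and Slc29a1 from -0.19 to 0.0079 (Per3 5/5) and from -0.16 to 0.16 (Per3 4/4).

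The replicate block, which pairs Per3 5/5 and WT arrays of equal number in run 1, called 0 adenosine probes and 0 probes in all. Same-numbered arrays correlated from -0.23 to 0.42, so the numbers do not pair them, and the numbers of files and table disagree in that run. In run 2 the groups share 1 number, so no paired fit was made.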
